A study of Mus musculus with 8 samples.

Results

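The genes described here are the co-activators Yap1 and Wwtr1 (the gene of Taz), their DNA-binding partners Tead1, Tead2 and Tead4, the inhibitors Lats2 and Amotl2, and the target genes Ankrd1, Ccn2 (also called Ctgf) and Ccn1 (also called Cyr61). They were chosen by name as regulators and targets of 1 pathway, and all 10 were found among the 24980 gene symbols of the count table and passed the filter on low counts. The 8 RNA libraries came from mouse cells of the skeletal muscle lineage and formed 4 groups of 2 biological replicates. TF cells were fresh teratoma-derived progenitors: E14-EGFP embryonic stem cells (1 line, marked with green fluorescent protein) had formed teratomas in irradiated, cardiotoxin-injured tibialis anterior muscles of NSG-mdx4Cv mice, which lack dystrophin and mature lymphocytes, and cells positive for EGFP, α7-integrin and VCAM-1 and negative for CD31 and CD45 were sorted. TE cells were teratoma-derived progenitors grown on gelatin in myogenic expansion medium to passage 8. SF cells were fresh satellite cells, which lie on adult muscle fibers and serve as their stem cells, and SE cells were satellite cells at passage 8 of the same culture. The strain, age and sort of the satellite cells, and the number of teratomas or mice pooled in a library, were not given in the sources used here.

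Yap and Taz carry signals from cell contact, stiffness and serum factors to the nucleus. They do not bind DNA themselves and act through Tead proteins, and the Lats kinases of the Hippo pathway phosphorylate them so that they are held in the cytoplasm or degraded. Several of their targets, Lats2 and Amotl2 among them, code for their own inhibitors. In muscle, Yap is known to favor the proliferation of satellite cells, and Tead sites lie in many muscle genes. Phosphorylation and the place of a protein in the cell are not seen in RNA, so the values below are transcript levels only.

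Sequences before the starts of Ankrd1, Amotl2 and Ccn1 are shown first. Ankrd1 and Amotl2 rose with expansion in both origins while Ccn1 fell. All of them hold the core letters of a Tead site before their RefSeq start, and whether these letters have a part in the changes was not tested. The letters GGAATG, or CATTCC on the other strand, were searched in the 250 bases before each RefSeq start (build GRCm38.p6). Windows were given for 7 of the 10 genes, namely Yap1, Wwtr1, Tead2, Lats2, Amotl2, Ankrd1 and Ccn1. Wwtr1 and Lats2 had 2 windows each. At least 1 match lay before 5 of these genes (Yap1, Wwtr1, Amotl2, Ankrd1 and Ccn1) and none before Tead2 and Lats2. Of 32851 windows of that length 12.6% held one, a share of windows and not of genes. The AP-1 letters TGACTCA or TGAGTCA lay before 0 of the 7 genes and in 4.46% of all windows, so no match of one motif overlapped the other. A match is a description of the sequence and does not show that a factor binds there. In the lines below capitals mark the Tead letters, read 5′ to 3′ on the strand of the gene. The Ccn1 line is the whole window (chr3:145649986-145650235, minus strand, no annotated exon), with its match 103 bases before the start. The Ankrd1 lines are 30 bases around each of its 2 matches (chr19:36120037-36120066 and chr19:36119950-36119979, minus strand), 210 and 123 bases before the RefSeq start, and the Amotl2 line is 30 bases (chr9:102717727-102717756, plus strand), 65 bases before it. The Ankrd1 and Amotl2 stretches lie in exons of GENCODE M21 transcripts that start further upstream.
Ankrd1 far: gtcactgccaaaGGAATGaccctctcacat
Ankrd1 near: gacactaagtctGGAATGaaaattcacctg
Amotl2: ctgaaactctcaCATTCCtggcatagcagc
Ccn1: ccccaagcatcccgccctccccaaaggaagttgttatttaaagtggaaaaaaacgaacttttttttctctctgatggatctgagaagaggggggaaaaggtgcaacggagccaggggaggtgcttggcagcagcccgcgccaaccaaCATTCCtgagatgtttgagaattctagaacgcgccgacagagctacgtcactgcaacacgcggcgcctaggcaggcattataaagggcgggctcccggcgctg

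The libraries held between 11930961 and 21146632 estimated counts, and the ribosomal RNA precursor Rn45s took 7.99% to 21.3% of them. Levels are given as CPM, that is with the counts of each library scaled to 1 common total, corrected by TMM (the trimmed mean of M-values). A gene was called higher or lower where edgeR's quasi-likelihood test gave a Benjamini-Hochberg adjusted p below 0.05 over 17582 tested genes. The log2 fold change also had to be above 0.32 in size (the threshold of the study). An error after ± is an approximate standard error, the size of the log2 fold change divided by the square root of the test's F statistic. Of the 7 markers of the myogenic lineage, 2 were higher in every expanded than in every fresh library (Des and Itga7). The 3 lower in every expanded library were Pax7, Myf5 and Vcam1. Pax7 stood at 199 and 319 CPM in TF and 231 and 270 in SF. It stood at 101 and 83.6 CPM in TE and 115 and 78.2 in SE. Vcam1 stood at 250 and 337 CPM in TF and 39.1 and 40.4 in TE. In satellite cells Vcam1 stood at 307 and 388 CPM in SF and 118 and 69.1 in SE. The list summed to 1303 and 1625 CPM in TF and 2256 and 2290 in TE. In satellite cells the list summed to 1977 and 2560 CPM in SF and 2747 and 3336 in SE. Markers of other cells were not equal among the groups. The 8 fibro-adipogenic markers summed to 32717 and 33042 CPM in TF and 3271 and 5954 in SF. They summed to 616 and 679 CPM in TE and 1124 and 1302 in SE. All 8 were lower in every expanded than in every fresh library (Dpt was at 0 in TE and Lum in SE). Most of the TF sums came from 2 collagens. Col1a1 stood at 13562 and 13820 CPM in TF and 1004.5 and 1921 in SF. Col3a1 stood at 17302 and 17367 CPM in TF and 1371 and 2508 in SF. Of the 8 markers, 5 were higher in every TF than in every SF library, while Dcn, Dpt and Ly6a overlapped. The 6 endothelial markers summed to 72.4 and 259.8 CPM in TF and 282 and 359.9 in SF, against 2.22 or less in every expanded library, where Kdr, Tie1 and Emcn were at 0. The 6 haematopoietic markers summed to 399 CPM in TF replicate 1, which also held the higher endothelial sum of that group, to 38.4 to 50.001 CPM in the other fresh libraries and to 3.18 to 11.1 CPM in the expanded libraries (Ptprc and Adgre1 were at 0 in the expanded libraries), and the 4 Schwann cell markers to 11.7 to 63.9 CPM in fresh and 2.28 to 4.46 CPM in expanded libraries. The 6 smooth muscle and pericyte markers summed to 1676 to 1929 CPM in the fresh libraries. They summed to 1783 and 1805 CPM in TE, where Rgs5 was at 0, and 617 and 1740 in SE. Acta2 alone stood at 1521 and 1507 CPM in TE and 343 and 1456 in SE, against 154 to 497 in fresh libraries. Lower in every expanded than in every fresh library were 4 of the 6, namely Rgs5, Myh11, Pdgfrb and Notch3. The 10 differentiation markers summed to 574 and 1081 CPM in TF and 197 and 249.9 in SF. They summed to 7312 and 7776 CPM in TE and 8903 and 19205 in SE. Myh3 was the highest of them in every expanded library. Higher in every expanded than in every fresh library were 7 of the 10, while Ckm, Myh1 and Myh4 overlapped. Myh1 stood at 28.2 and 21.1 CPM in SF and 1939 and 4263 in SE. In teratoma-derived cells Myh1 stood at 107 and 65.8 CPM in TF and 102 and 131 in TE. Myh4 stood at 102 and 82.3 CPM in SF and 22.7 and 23.2 in TE. The part of these cells in the changes below was not tested, and in bulk RNA fewer cells of a type and less RNA per cell cannot be told apart.

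In both origins expansion was accompanied by more Tead1, Tead2, Tead4, Amotl2 and Ankrd1 and by less Ccn1 and Ccn2, while of the co-activators Wwtr1 was called in neither origin and Yap1 in satellite cells only. In TE versus TF, 6 of the 10 genes were called higher and 2 lower, with 3 called higher when any 1 of the TF or TE libraries was left out. The background of that comparison was 26.1% of all tested genes called, 9.86% higher and 16.2% lower. In SE versus SF, 5 were called higher and 3 lower, where 40.7% of all tested genes were called, 20.9% higher and 19.8% lower. The median log2 fold change of the 10 genes was 0.75 in TE versus TF and 0.51 in SE versus SF, beside −0.18 and −0.23 over all tested genes. Called higher in both comparisons were 5 of the 10, against 6.34% of all tested genes, and lower in both were 2 of the 10, against 9.81%. With all 4 expanded libraries set against all 4 fresh ones, Tead1, Tead2, Tead4, Lats2 and Ankrd1 did not overlap and were higher (15.3% of all tested genes did so), Ccn1 and Ccn2 did not overlap and were lower (17.9%), and Yap1, Wwtr1 and Amotl2 overlapped. Median-ratio scaling moved the median of all genes by −0.19 in SE versus SF (log2), by −0.16 in TF versus SF and by 0.14 in the difference between origins. Of the genes called in SE versus SF, 51.4% were higher, and 40.2% with DESeq2. No call among the 10 genes changed direction under any scaling tried.

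**Figure D1:**
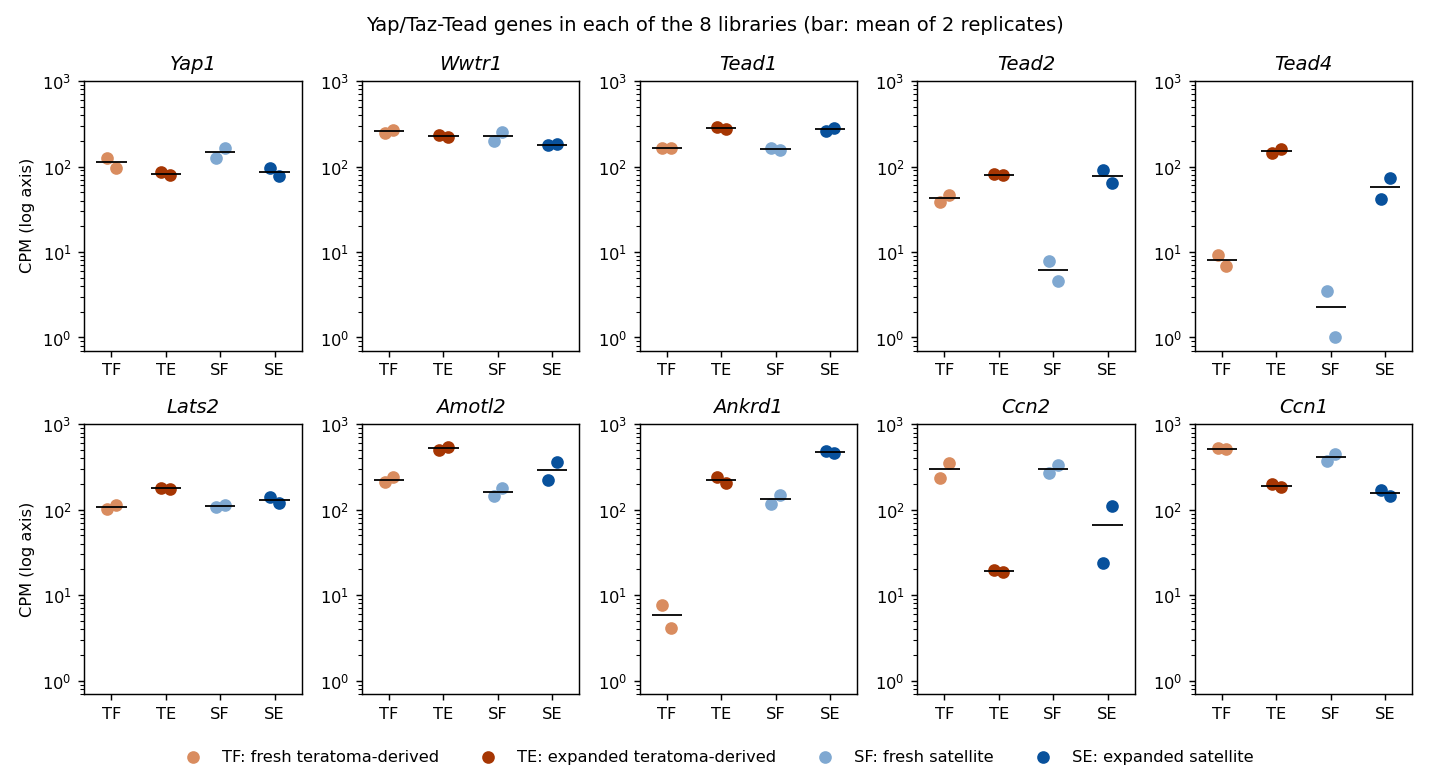
Level of each of the 10 genes in the 8 libraries, in CPM on a log axis, with 1 point per library and a bar at the mean of the 2 replicates of each group. Tead4 and Ankrd1 span more than any other of the 10 genes, Ccn2 and Ccn1 sit lower in the expanded groups, and Yap1 and Wwtr1 stay within a narrow band.

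Yap1, the gene of the co-activator Yap, stood lower in the expanded than in the fresh libraries of each origin, and was called lower in satellite cells. It stood at 127 and 95.6 CPM in TF and at 85.6 and 78.9 in TE, a log2 fold change of −0.44 ± 0.22 that was not called (edgeR adjusted p = 0.172). In the satellite cells it stood at 126 and 166 CPM in SF and at 95.7 and 77.1 in SE. Each expanded pair lay below its fresh pair, and the ranges of TE and SE overlapped. The SE versus SF change of −0.76 ± 0.22 was called lower (edgeR adjusted p = 0.0221), and lost the call without SF replicate 2 (adjusted p = 0.124) or SE replicate 2 (0.0936), with only the satellite groups in the fit (0.0503) and with glmTreat, a test against the fold threshold itself (0.0503). The 2 changes were not shown to differ: their difference was 0.32, with a 95% interval from −0.38 to 1.02.

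Wwtr1, the gene of Taz, was called in neither origin. Its levels were 247 and 268 CPM in TF, 232 and 219 in TE, 198 and 252 in SF and 178 and 182 in SE. The TE and SE pairs each lay just below their fresh pair. The log2 fold change was −0.19 (95% interval −0.60 to 0.22) in TE versus TF and −0.32 (−0.73 to 0.09) in SE versus SF, and neither passed the threshold. Under median-ratio scaling the satellite value was −0.51 and was called (edgeR adjusted p = 0.0387). Wwtr1 reads exceeded those of Yap1 in every library, at 1.52 to 2.81 times the level in CPM, and per kilobase of the longest coding transcript Wwtr1 stood at 37.8 to 57.1 and Yap1 at 18.5 to 39.8 CPM.

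The Tead genes code for the proteins that bind DNA for Yap and Taz, and all of those chosen here rose on expansion. Tead4, a Tead known for its part in myoblasts, moved most. It was low in fresh cells, at 9.25 and 6.94 CPM in TF and 3.49 and 1.01 in SF, and stood at 143 and 158 CPM in TE and 41.5 and 72.7 in SE. No expanded library overlapped a fresh one, and TE lay above SE. The log2 fold change was 4.22 ± 0.47 in TE versus TF (edgeR adjusted p = 0.00019) and 4.67 ± 0.50 in SE versus SF (8.84e-05). The SF value rests on 48 and 15 counts, and the satellite change was 4.05 without SF replicate 2 and 5.81 without SF replicate 1.

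Tead2, a Tead best known from embryonic tissue, rose from very unequal starting levels. It stood at 7.78 and 4.58 CPM in SF and at 38.3 and 46.6 in TF, and at 90.1 and 63.8 in SE and 81.0 and 78.7 in TE. The TE pair lay inside the range of the SE pair, whereas the fresh pairs lay far apart. The change was 3.64 ± 0.31 in SE versus SF (edgeR adjusted p = 2.54e-05) and 0.91 ± 0.28 in TE versus TF (0.0361). The difference between the origins, −2.73 ± 0.40, was itself called (edgeR adjusted p = 0.00248). The teratoma call was lost under median-ratio scaling (adjusted p = 0.0522), with glmTreat (0.0676) and when any 1 of the TF or TE libraries was left out (0.0632 to 0.165).

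Tead1, the Tead found in most adult tissues, varied little within groups. Its levels were 165 and 165 CPM in TF, 163 and 155 in SF, 287 and 276 in TE and 261 and 284 in SE. The fresh groups lay side by side, as did the expanded ones. The rise was 0.77 ± 0.17 in TE versus TF (edgeR adjusted p = 0.00783) and 0.78 ± 0.17 in SE versus SF (0.00462), and the difference between these values was −0.01, with a 95% interval from −0.53 to 0.51. The teratoma call was lost when 1 TF or TE library was left out (adjusted p from 0.0683 to 0.0899), while the change then lay between 0.77 and 0.82.

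Tead3 completes the family and was among the other pathway genes counted further below. It stood at 36.9 and 35.9 CPM in TF, 22.3 and 18.3 in TE, 71.4 and 67.4 in SF and 12.2 and 29.6 in SE, and was called lower in SE versus SF (−1.73 ± 0.37, edgeR adjusted p = 0.00447) and not called in TE versus TF. Divided by the length of the longest coding transcript, the Tead transcripts together came to 44.1 and 45.5 CPM per kilobase in TF and 45.5 and 41.5 in SF, and to 107 and 109 in TE and 70.6 and 81.6 in SE. Tead4 took 6.81% and 4.96% of that sum in TF and 43.4% and 47.2% in TE, and 2.49% and 0.79% in SF and 19.1% and 29.0% in SE. Tead3 took 56.5% and 58.6% in SF and 6.21% and 13.1% in SE. With the length of all exons together the Tead4 shares were 49.0% and 52.7% in TE and 22.5% and 34.3% in SE, and Tead1, not Tead3, was then the leading Tead of SF, at 47.6% and 50.3%. Under both lengths Tead4 was the leading Tead in TE.

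**Figure D2:**
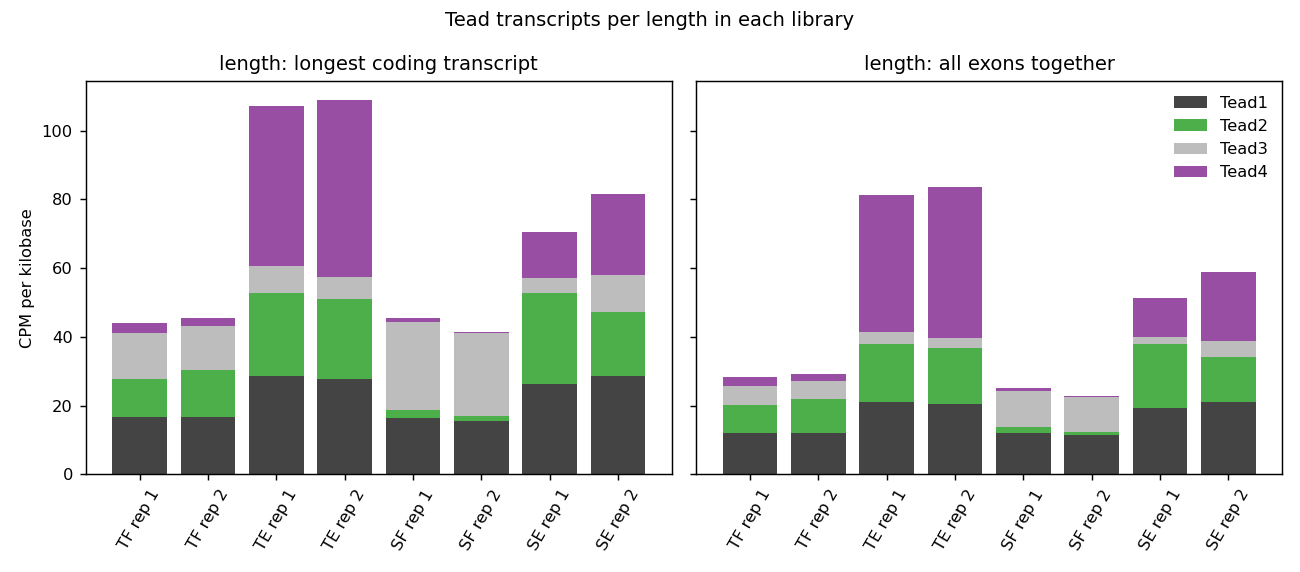
Tead1 to Tead4 levels in CPM per kilobase, stacked for each library, with the length of the longest coding transcript on the left and of all exons together on the right. Tead4 makes up 43.4% and 47.2% of the left-hand bars in TE against 6.81% and 4.96% in TF, and the Tead3 segment of SF shrinks in SE.

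Lats2, the kinase that phosphorylates Yap and Taz, rose in the teratoma-derived cells. It stood at 101 and 113 CPM in TF and 179 and 176 in TE, and at 108 and 114 in SF and 142 and 121 in SE. All expanded libraries lay above all fresh ones, the SE pair by little. The change was 0.73 ± 0.17 in TE versus TF (edgeR adjusted p = 0.0131) and 0.25, with a 95% interval from −0.14 to 0.64, in SE versus SF, where it was not called. Their difference, 0.48 (−0.07 to 1.04), was not called. The teratoma call was lost when any 1 TF or TE library was left out, where the change lay between 0.68 and 0.85. Of the 31-base words of Lats2 transcripts, 41.8% also occur in the overlapping gene model Gm49361. That model is not in the count table, and the estimated counts of Lats2 were whole numbers in all 8 libraries. Whether reads were shared between the models was not tested.

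Amotl2, an angiomotin that binds Yap at cell junctions, rose more. Its levels were 209 and 239 CPM in TF, 495 and 546 in TE, 145 and 179 in SF and 224 and 363 in SE. Both expanded pairs lay above their own fresh pair, and the lower SE library lay inside the range of TF. The change was 1.22 ± 0.25 in TE versus TF (edgeR adjusted p = 0.00586) and 0.86 ± 0.25 in SE versus SF (0.0197). The satellite value fell to 0.48 and lost its call without SE replicate 2 (adjusted p = 0.116), and was 0.72 without SF replicate 1 (0.0978). It was also not called with only the satellite groups in the fit (0.0562). It was 1.19 without SE replicate 1.

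Of the targets, Ankrd1 rose and the Ccn genes fell. Ankrd1 codes for the cardiac ankyrin repeat protein, found in the sarcomere and the nucleus of striated muscle and a widely used Yap target. It stood at 7.65 and 4.15 CPM in TF (91 and 52 counts) and at 241 and 205 in TE, and at 118 and 148 in SF and 487 and 462 in SE. The 4 groups did not overlap, in the order TF, SF, TE and SE. The rise was 5.24 ± 0.31 in TE versus TF, a 37.8-fold ratio of mean CPM (edgeR adjusted p = 5.57e-06), and 1.83 ± 0.26 in SE versus SF, or 3.57-fold (0.000461). The rise was larger in the teratoma-derived cells by 3.41 ± 0.38 (log2), and that difference was called (edgeR adjusted p = 0.00066) under every alternative and with any library left out, between 3.05 and 3.92.

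Ccn1, a secreted matrix-associated protein and an early serum-response gene, fell in both origins. It stood at 528 and 509 CPM in TF, 375 and 447 in SF, 199 and 185 in TE and 172 and 143 in SE. Every expanded library lay below every fresh one. The change was −1.43 ± 0.19 in TE versus TF (edgeR adjusted p = 0.000516) and −1.38 ± 0.19 in SE versus SF (0.000379), and the 95% interval of their difference ran from −0.64 to 0.54. Neither call was lost under any alternative or when 1 library was left out.

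Ccn2, its relative and a growth factor of connective tissue, fell further but with a wider spread. It stood at 236 and 356 CPM in TF, 269 and 333 in SF, 19.7 and 18.5 in TE, and 24.0 and 109 in SE. The SE libraries differed by 4.55-fold, and both lay above TE and below every fresh library. The change was −3.95 ± 0.59 in TE versus TF (edgeR adjusted p = 0.00111) and −2.18 ± 0.55 in SE versus SF (0.0108). The satellite value was −3.64 without SE replicate 2 and −1.44 without SE replicate 1, and was called in both cases. The difference between origins, −1.77, was not called (edgeR adjusted p = 0.153). It was called with no filter on low counts (−1.78, adjusted p = 2.92e-06). It was −2.48 and called without SE replicate 1 (0.000136), and −0.31 without SE replicate 2. Of the 31-base words of Ccn2 transcripts, 19.7% also occur, on the other strand, in the antisense model Gm15270. That model is not in the count table, and the estimated counts of Ccn2 were whole numbers in all 8 libraries. The library kit keeps strand, but the strand setting of the counting was not given in the sources used here.

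The balance among the targets differed between fresh and expanded libraries. Ankrd1 counts came to 0.01 to 0.03 of the Ccn2 counts in TF and 0.44 in both SF libraries, and to 12.2 and 11.1 times the Ccn2 counts in TE and 20.3 and 4.23 times in SE. These are ratios of CPM within a library, not of transcripts, since the genes differ in length. Per kilobase of the longest coding transcript, Ccn1 led the 10 genes in TF at 261 and 252 CPM and in SF at 186 and 221, and Ankrd1 led in SE at 241 and 229. In TE, Amotl2 at 114 and 126 and Ankrd1 at 120 and 101 overlapped and lay above Ccn1 at 98.5 and 91.6. With the length of all exons together Ccn1 led in TE instead, since Amotl2 then stood at 78.8 and 86.7 and Ankrd1 at 83.7 and 71.0, while the leaders of the other groups were the same.

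**Figure D3:**
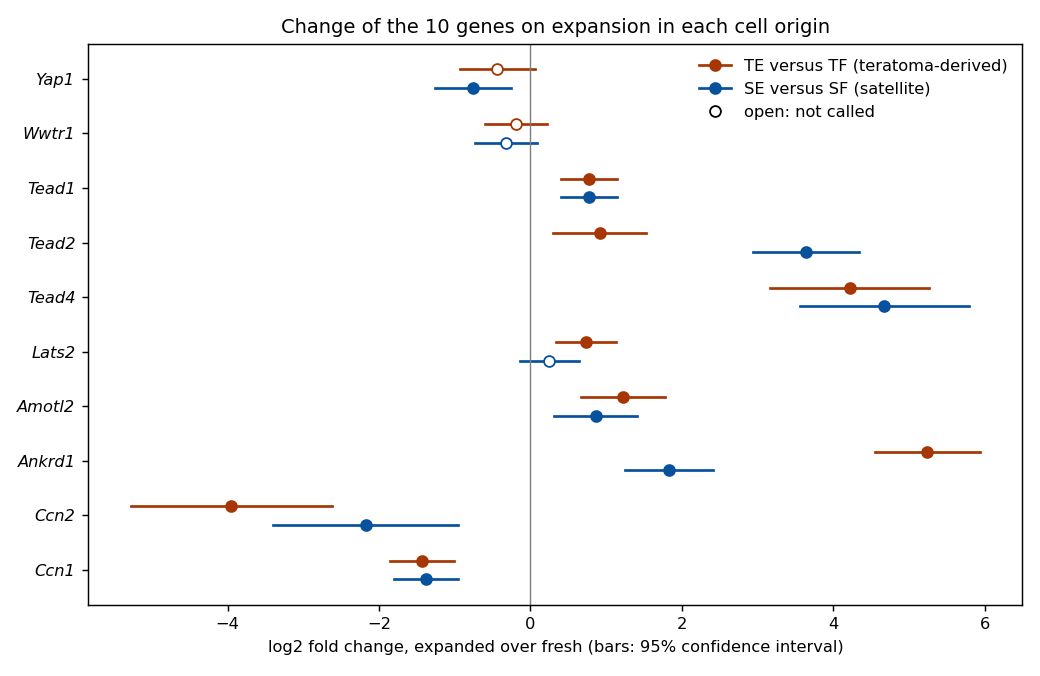
Log2 fold change of expanded over fresh cells for each of the 10 genes, teratoma-derived (TE versus TF) and satellite (SE versus SF). Bars are approximate 95% confidence intervals worked back from edgeR's F statistic, and circles are open where a change was not called. The intervals of Tead2 and of Ankrd1 lie apart between the origins, those of Tead1 and Ccn1 nearly coincide, and those of Ccn2 are the widest.

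Compared between origins at the same stage, the fresh cells differed in Tead2, Tead4 and Ankrd1. In TF versus SF 2 of the 10 genes were called higher and 1 lower, where 24.2% of all tested genes were called, 15.1% higher and 9.13% lower. The log2 fold change of TF over SF was 2.78 ± 0.30 for Tead2 (edgeR adjusted p = 0.000365), 1.86 ± 0.48 for Tead4 (0.0215) and −4.50 ± 0.30 for Ankrd1 (5.99e-05). The Tead4 call was lost without TF replicate 1 (adjusted p = 0.0576) and without SF replicate 2, where the change was 1.23 (0.0563), and with only these 2 groups in the fit (0.183). The change was 2.97 without SF replicate 1.

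At passage 8 only Ankrd1 was called among the 10, where 7.21% of all tested genes were called in TE versus SE, 3.15% higher and 4.07% lower. Ankrd1 was lower in TE, with a log2 fold change of −1.09 ± 0.25 (edgeR adjusted p = 0.032), a call lost without TE replicate 1 (0.116) or TE replicate 2 (0.243) and with glmTreat (0.0621). Tead4 (1.40 ± 0.41, edgeR adjusted p = 0.0748), Amotl2 (0.83 ± 0.25, 0.0794) and Ccn2 (−1.80 ± 0.55, 0.088) missed the threshold although their pairs did not overlap. DESeq2 called Tead4 and Amotl2. With no filter on low counts all of them were called (edgeR adjusted p = 4.59e-06 for Tead4, 0.00829 for Amotl2 and 1.75e-11 for Ccn2). With only TE and SE in the fit Tead4 was called (edgeR adjusted p = 0.0412). Tead4 was also called without TF replicate 1 or either SF library (edgeR adjusted p from 0.00977 to 0.0484). Leaving out SE replicate 2 gave 1.86 for Tead4 and 1.22 for Amotl2, both called, and −0.33 for Ccn2, while leaving out SE replicate 1 gave −2.51 for Ccn2, called. Tead4 lies on chromosome 6 (chr6:128224288-128300823, GRCm38, minus strand). The 633 genes of chromosome 6 whose normalized counts averaged 50 or more had a median log2 fold change of 0.76 in TF versus SF and 0.53 in TE versus SE, beside 0.22 and −0.01 on the other chromosomes. Chromosome 6 medians were −0.07 in TE versus TF and 0.05 in SE versus SF, beside 0.06 and 0.23.

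The SE libraries differed from each other more than those of any other group (a chi-square of 93.0 for each degree of freedom between them, against 12.1 to 53.4 in the other groups). SE replicate 2 exceeded SE replicate 1 by 4.55-fold in Ccn2, 1.75-fold in Tead4 and 1.62-fold in Amotl2, and had 0.71 of its Tead2. All 10 differentiation markers were higher in SE replicate 2, and their sum was 2.16-fold that of SE replicate 1. The smooth muscle and pericyte sum was 2.82-fold, the haematopoietic sum 2.72-fold (11.1 against 4.10 CPM) and the myogenic sum 1.21-fold. In the smooth muscle and pericyte list, Acta2 stood at 343 CPM in SE replicate 1 and 1456 in SE replicate 2. In the same order Rgs5 stood at 62.2 and 65.6 CPM and Notch3 at 173 and 155. Of the 6 haematopoietic markers, 3 were higher in SE replicate 2. Whether these marker differences have a part in the spread of Ccn2, Tead4 and Amotl2 was not tested.

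Among 31 other genes of the Hippo and Tead machinery, changes went in both directions. In TE versus TF 8 were called higher, 3 lower and 20 not, with a median of 0.05, or 25.8% higher and 9.68% lower beside 9.86% and 16.2% of all tested genes. The 8 called higher became 3 to 5 when 1 TF or TE library was left out, with 3 without TE replicate 2, and the 3 called lower became 5 without SE replicate 2. In SE versus SF 7 were called higher, 8 lower and 16 not, with a median of 0.04, or 22.6% higher and 25.8% lower beside 20.9% and 19.8% of all tested genes. The protocadherin receptor Fat4 (−8.46 ± 0.78) and its ligand Dchs1 (−3.51 ± 0.34) fell most in TE versus TF. Fat4 stood at 191 and 137 CPM in TF and 0.76 and 0.16 in TE, against 144 and 157 in SF and 86.5 and 23.4 in SE. Dchs1 went the other way in satellite cells, from 47.7 and 56.0 CPM in SF to 144 and 72.9 in SE (1.07 ± 0.31). The origins differed in the changes of both (Fat4 by −7.00, edgeR adjusted p = 0.00134, and Dchs1 by −4.58, 0.000418).

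The vestigial-like cofactors Vgll2 and Vgll3, which also bind Tead proteins, both rose in the teratoma-derived cells, and Vgll2 fell in the satellite cells. Vgll2 stood at 7.32 and 15.2 CPM in TF and 48.8 and 49.4 in TE, and at 97.8 and 158 in SF and 4.29 and 3.83 in SE. It rose by 2.12 ± 0.35 in the teratoma-derived cells and fell by 4.97 on the log2 scale in the satellite cells, and the difference of 7.09 ± 0.53 was called (edgeR adjusted p = 9.19e-05). Vgll3 rose in TE versus TF (2.23 ± 0.31) and stood at 101 and 118 CPM in SF and 69.5 and 133 in SE, where it was not called.

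Higher in both origins were Ajuba, which restrains Lats kinases (1.66 ± 0.46 in TE versus TF and 2.50 ± 0.48 in SE versus SF), the polarity protein Scrib (1.20 and 1.17), the Lats cofactor Mob1b (1.08 and 1.08) and the Hippo activator Nf2 (0.84 and 0.51). Frmd6, a membrane protein upstream of the kinases, fell in both but further in satellite cells (−2.69 ± 0.20 against −0.68 ± 0.19, difference 2.01, edgeR adjusted p = 0.00151). The kinase Csnk1d fell in SE versus SF (−1.74 ± 0.19) from 305 and 381 CPM to 105 and 101, and stood at 112 and 121 in TF and 123 and 108 in TE. Among the 31, 5 had a difference between origins called higher and 3 lower, where 4.7% of all tested genes were called higher and 9.62% lower.

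A second list held 17 other genes reported as Yap or Taz targets, and they did not move as 1 group. In TE versus TF 3 were called higher and 7 lower, with a median of −0.68, and in SE versus SF 5 were called higher and 6 lower, with a median of −0.41, beside −0.18 and −0.23 over all tested genes. The shares called were 17.6% higher and 41.2% lower in TE versus TF, beside 9.86% and 16.2% of all tested genes, and 29.4% higher and 35.3% lower in SE versus SF, beside 20.9% and 19.8%. The membrane protein Myof rose in both (2.10 ± 0.28 and 2.99 ± 0.29), from 92.5 and 78.7 CPM in TF to 361 and 374 in TE and from 41.5 and 57.0 in SF to 498 and 285 in SE. The only other target called higher in both was Ptpn14, a phosphatase that binds Yap (1.02 ± 0.28 and 1.11 ± 0.28), named after its values were seen. Tissue factor F3 fell in both (−3.26 ± 0.43 and −4.59 ± 0.46), as did Crim1 (−2.66 and −1.88), Rbms3 (−1.19 and −1.53) and Ccdc80 (−5.07 and −1.45). Nt5e, a surface enzyme that makes adenosine, fell in SE versus SF (−3.42 ± 0.74), from 11.1 and 10.1 CPM in SF to 1.56 and 0.40 in SE, and stood at 7.57 and 5.42 in TF and 5.80 and 4.57 in TE.

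For 8 of the 17 the change differed between origins, toward higher values in the teratoma-derived cells for 1 and toward lower values for 7, beside 4.7% and 9.62% of all tested genes. The 7 became 3 without TE replicate 1 and 4 without TF replicate 2, TE replicate 2 or SF replicate 1, and the 1 became 2 without SF replicate 1 or SE replicate 1. The matrix protein Ccdc80 stood at 819 and 932 CPM in TF and 26.5 and 25.6 in TE, and at 74.9 and 119 in SF and 28.6 and 42.3 in SE. The mesenchymal transcription factor Foxf2 stood at 22.3 and 27.8 CPM in TF and at 2.26 or less in the other 6 libraries. Igfbp3, which binds insulin-like growth factors, rose from 16.6 and 21.9 CPM in SF to 113 and 180 in SE (2.93 ± 0.26), and stood at 346 and 363 in TF and 258 and 264 in TE. Gadd45a, a stress-response gene, rose in TE versus TF (1.46 ± 0.23) and fell in SE versus SF (−0.66 ± 0.23). The fibro-adipogenic marker sums given above were also highest in TF, where Ccdc80 and Foxf2 were highest. Col1a1 and Col3a1 made up most of those TF sums, and Dcn, Dpt and Ly6a overlapped between TF and SF. The part of such cells was not tested.

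The fall of Ccn1 and Ccn2 stood beside that of a list of 14 immediate early genes, the transcripts that appear within minutes of a stimulus, such as Fos, Fosb and Egr1. Their summed level was 14091 and 14514 CPM in TF and 13880 and 16193 in SF, and 634 and 614 in TE and 642 and 607 in SE. All 14 were called lower in both comparisons, with medians of −4.14 in TE versus TF and −4.88 in SE versus SF, where 16.2% and 19.8% of all tested genes were called lower, and 9.81% in both. The Ccn1 change was smaller than those medians in both origins, and Ccn2 lay near the median in the teratoma-derived cells. The 2 SE libraries had nearly equal immediate early sums, in which Jun stood at 358 and 349 CPM. Single genes differed between them, and 8 of the 14 were higher in SE replicate 2, the library with more Ccn2. Atf3 stood at 2.64 CPM in SE replicate 1 and 9.43 in SE replicate 2, and Egr1 at 127 and 71.9. Whether the immediate early genes and the Ccn genes fell for a common reason was not tested.

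**Figure D4:**
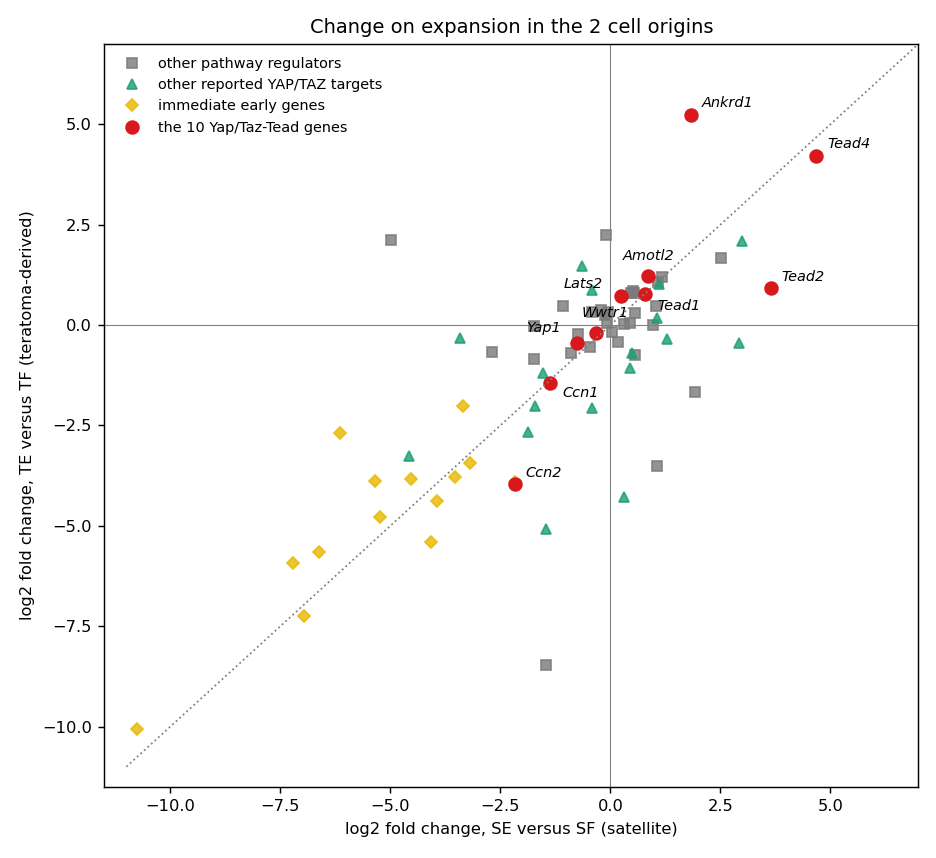
Log2 fold change of expanded over fresh cells in satellite (horizontal) and teratoma-derived cells (vertical), with 1 point per gene for the 10 Yap/Taz-Tead genes, 31 other pathway genes, 17 other reported targets and 14 immediate early genes. Ankrd1 lies above the dotted line of equal change and Tead2 below it, and all immediate early genes lie in the lower left.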

How the data were processed

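Estimated counts without normalization were deposited by the authors in 1 table, with 24980 gene symbols in 8 libraries. The submitters' processing notes name CASAVA, kallisto 0.44.0 and the builds GRCm38 and mm10, without their roles. Libraries were strand-specific and paired-end, and kallisto can split reads between similar transcripts. Totals were 11930961 to 21146632. Counts were rounded, filtered with filterByExpr (17582 genes kept), scaled by TMM and tested with edgeR's glmQLFit and glmQLFTest in 1 model of the 4 groups with no term for replicate. Comparisons were TE versus TF, SE versus SF, the difference between them (interaction), TF versus SF and TE versus SE. A call needed a Benjamini-Hochberg adjusted p below 0.05 and an absolute log2 fold change above 0.32, the thresholds of the study. Standard errors and 95% intervals were worked back from the F statistic of each test and are approximate. The p-values measure the spread between these libraries, whose separate animals or teratomas were not given. With 2 libraries a group the spread is weakly known (common dispersion 0.233). Counts of 16794 genes were simulated with 100 genes changed 4-fold and 100 changed 2-fold, in TE alone. In TE versus TF 54% of the former and 10% of the latter were found, and 5.88% of calls were false. Far fewer genes were changed there than the 26.1% called in the real comparison, so these shares cannot be carried over to it.

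The 10 genes and the lists (31 regulators, 17 targets, 14 immediate early genes and the myogenic, differentiation, endothelial, haematopoietic, fibro-adipogenic, smooth muscle and pericyte, and Schwann cell markers) were chosen with earlier results of these data known. Named were all 10 genes and, from the regulators and targets, called genes among the 8 largest changes of each comparison of expansion or of the interaction; Tead3 is also shown in the family. Lengths and coordinates came from GENCODE M21 (GRCm38), and promoter windows from RefSeq (GRCm38.p6). Alternatives were median-ratio scaling, no filter, DESeq2, only the groups compared, a replicate block, glmTreat, Rn45s left out and each library left out. Tools were edgeR 4.0.16, limma 3.58.1 and DESeq2 1.42.0 in R 4.3.3, and Python 3.11.15 with pandas 2.3.3 and matplotlib 3.10.9.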

Additional observations from a re-analysis of the deposited data

Results flagged for a closer look

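The results below are those for which the change on expansion differed between teratoma-derived and satellite cells by the test of the difference itself (edgeR's quasi-likelihood interaction term, adjusted p below 0.05 and size above 0.32 on the log2 scale). Values are log2 differences, the teratoma change minus the satellite change. Of the 10 Yap/Taz-Tead genes these were Ankrd1 (3.41) and Tead2 (−2.73). Of the other pathway genes they were Vgll2 (7.09), Vgll3 (2.34), Frmd6 (2.01), Csnk1d (1.72) and Limd1 (1.54), whose difference was positive, and Fat4 (−7.00), Dchs1 (−4.58) and Wwc1 (−3.58), whose difference was negative. Of the other reported targets they were Gadd45a (2.12), positive, and Foxf2 (−4.59), Ccdc80 (−3.62), Igfbp3 (−3.37), Tgfb2 (−1.65), Asap1 (−1.63), Axl (−1.52) and Arhgef17 (−0.87), negative.

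The levels behind these differences were of several kinds. Vgll2, Dchs1 and Gadd45a moved in opposite directions in the 2 origins, with a call in each. Limd1 stood at 49.95 and 31.6 CPM in TF and 53.8 and 58.6 in TE, and at 101 and 115 in SF and 48.6 and 53.9 in SE, so that the fresh groups were apart and the expanded ones close. Tgfb2 stood at 213 and 266 CPM in TF and 54.2 and 60.8 in TE, and at 73.1 and 97.2 in SF and 51.9 and 76.4 in SE. Wwc1 was low throughout, at 26.1 and 7.26 CPM in TF, 7.26 and 3.27 in TE, 3.71 and 1.88 in SF and 12.5 and 8.69 in SE, and the TF and TE replicates spread widely. The receptor tyrosine kinase Axl stood at 284 and 289 CPM in TF and 147 and 126 in TE, and at 196 and 249 in SF and 399 and 209 in SE.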

How the results depend on the processing

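Of 740 values of the 10 genes under the alternatives, 696 kept their direction and their side of the threshold, 27 lost a call, 17 gained one and 0 reversed, and the cause of these moves was not tested. Without the filter on low counts, TE versus TF regulators called lower were 6 (3 as reported). The interaction then gave 1284 genes higher (826), 2 of the 10 genes lower (1), 5 regulators lower (3) and 3 targets higher (1), and TE versus SE gave 902 genes higher (553) and 1358 lower (715), with 2 of the 10 higher (0) and 2 lower (1). With DESeq2 the interaction gave 1493 genes higher and 2 targets higher, TF versus SF 2601 genes lower (1606), and TE versus SE 861 genes higher, 1240 lower and 2 of the 10 higher. Higher calls were then 43.9% of the interaction calls (32.8% as reported) and 48.4% of those in TF versus SF (62.3%; 52.1% with median-ratio scaling). With only the groups compared, TE versus TF gave 2667 genes higher (1733) and 6 regulators lower, TF versus SF gave 1 of the 10 higher (2), and TE versus SE gave 1 higher. With glmTreat, 0 of the 10 were lower in TE versus SE.

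With 1 library left out at a time, TE versus TF gave 811 to 2116 genes higher, 3 to 6 of the 10 genes higher, 3 to 8 regulators higher and 2 to 5 lower. The interaction gave 457 to 1074 genes higher and 1010 to 1922 lower, 1 to 2 of the 10 lower, and 1 to 2 targets higher and 3 to 8 lower. TF versus SF gave 1693 to 3119 genes higher and 932 to 1986 lower, and 1 to 2 of the 10 higher. TE versus SE gave 272 to 741 genes higher and 381 to 957 lower, and 0 to 2 of the 10 in each direction. The lowest counts of all genes came without a TE library for the interaction and TE versus SE and without a TF library for TF versus SF.

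Whether replicate numbers pair the samples was not given in the sources used here. Deviations of same-numbered libraries correlated at −0.02 to 0.03 between groups over 17582 genes. Such values cannot show whether libraries shared a teratoma or mouse. With a replicate block 1 of the 10 was higher in TE versus SE (Amotl2, 0.86, edgeR adjusted p = 0.0416), and no other call among the 10 genes changed. In the simulated counts, where far fewer genes changed than were called in the real TE versus TF comparison, 10% of genes changed 2-fold were found.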

Other observations

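Genes whose log2 levels followed those of the 10 genes most closely over the 8 libraries were looked up among 12680 genes whose normalized counts averaged 50 or more. The libraries share 4 groups, origin and depth, so that many genes run alongside each other, and the coefficients are given as a description. Tead4 ran closest to the mitochondrial genes Mrps15 (Pearson r = 0.998) and Prdx3 (0.99), and Tead2 to the splicing gene Snrpe and the mitochondrial gene Aifm1 (0.995 each). Ankrd1 ran closest to the small GTPase Rras2 (0.987). Ccn1 ran closest to Itpkb (0.996) and the adhesion receptor Icam1 (0.995), and Ccn2 to Art4 and Papln (0.994 each). Art4 and Papln were at 0 in TE and at 1.09 CPM or less in SE, and Icam1 at 1.11 CPM or less in every expanded library. The coefficients of these genes thus mostly set fresh levels against levels near 0. Yap1 ran closest to the formin Diaph1 (0.992) and Crybg3 (0.99), Tead1 to Polr3a (0.992), Lats2 to Zc3h18 (0.983), and Amotl2 to Rnf11 and Nfe2l1 (0.977 each).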
